A study of Homo sapiens with 8 samples.

Results

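Among the CTCF peaks that HT1080 cells kept after CBL0137, 3131 had shrunk to 50% of their control width or less. HT1080 is a human fibrosarcoma line, and CBL0137 is a curaxin, a small molecule that inserts into DNA without breaking it. Cells were left untreated (control) or received 3 µM CBL0137 for 6 h, CTCF-bound DNA was immunoprecipitated and sequenced with input DNA, and each condition had 2 biological replicates of ChIP and 2 of input, 8 libraries in all. The control list held 47470 peaks and the list of treated cells 29558. Of the control peaks, 20363 overlapped no treated peak and are called lost here, 78 overlapped more than 1, and 27029 overlapped exactly 1 and are called shared. The narrowed peaks are the shared ones chosen by their width ratio, and the other 23898 shared peaks served for comparison. No treated peak of a narrowed pair overlapped a second control peak.

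CTCF is a zinc-finger protein that binds a long, directional DNA sequence and halts the cohesin ring, so that sites facing each other become the anchors of chromatin loops. It also insulates promoters from enhancers across a domain boundary and binds near many promoters. In a window-based peak caller, which was used here, the width of a peak is the run of neighbouring windows that pass the cutoff, so that width and enrichment are read from the same fragments.

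Both lists were called by the authors on the 2 replicates of a condition together. A peak therefore has 1 width and 1 fold enrichment of ChIP over input per condition, without a value per replicate, and the read depth behind a peak is unknown. Intervals below are 95% intervals that cover counting error over peaks only. Peaks are not replicates, so an interval says how precisely a share of these lists is known and nothing about repeated experiments. Fold enrichments are ranked only within a list, and where both are given for a peak they stand side by side, without a ratio between the lists.

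The reference sequence of the narrowed peaks that define the extremes of the group is shown first, on the plus strand of hg19, because the position and quality of the CTCF consensus recur in the results. They are narrowed peaks with the highest control fold enrichment or the most base pairs removed that hold a single best match, within 1 mismatch, to the 12-bp core of the CTCF consensus. Each line covers the part kept in treated cells, and capitals mark the match. The first 2 peaks are intergenic and among the strongest, and are named for the nearest protein-coding start. These starts are RPE65 at 107011 bp (chr1:68808551-68808700) and OR10R2 at 26650 bp (chr1:158476348-158476450). The OR10R2 match begins just before the treated peak, so that the line begins at the match. For ZCCHC2 only the match and its borders are given (chr18:60251743-60251772), since the peak lies in an untranslated region.
RPE65: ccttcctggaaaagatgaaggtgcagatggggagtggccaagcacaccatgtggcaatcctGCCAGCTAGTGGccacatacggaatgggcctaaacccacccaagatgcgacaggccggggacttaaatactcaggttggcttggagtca
OR10R2: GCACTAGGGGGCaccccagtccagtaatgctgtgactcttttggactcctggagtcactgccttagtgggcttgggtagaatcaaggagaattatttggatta
ZCCHC2: gaacgcaatGCCACCTGGTGGgggacgagg

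The next lines are the kept parts of peaks that lost the most sequence. They lie in introns of DGKG (chr3:185959701-185959900) and MEF2A (chr15:100244601-100244900). The others are intergenic and named for the nearest start, LPIN1 (chr2:11969401-11969650), MEIS2 (chr15:37426851-37427150) and MED13L (chr12:116384951-116385250).
DGKG: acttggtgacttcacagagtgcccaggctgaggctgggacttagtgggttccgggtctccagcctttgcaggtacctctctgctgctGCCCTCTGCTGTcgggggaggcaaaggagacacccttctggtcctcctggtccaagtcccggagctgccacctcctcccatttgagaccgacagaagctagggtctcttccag
LPIN1: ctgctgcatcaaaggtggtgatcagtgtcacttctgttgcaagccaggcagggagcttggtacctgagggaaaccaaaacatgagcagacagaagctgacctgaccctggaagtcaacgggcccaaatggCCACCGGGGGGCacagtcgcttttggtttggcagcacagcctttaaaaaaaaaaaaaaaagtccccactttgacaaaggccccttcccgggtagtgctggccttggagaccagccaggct
MEF2A: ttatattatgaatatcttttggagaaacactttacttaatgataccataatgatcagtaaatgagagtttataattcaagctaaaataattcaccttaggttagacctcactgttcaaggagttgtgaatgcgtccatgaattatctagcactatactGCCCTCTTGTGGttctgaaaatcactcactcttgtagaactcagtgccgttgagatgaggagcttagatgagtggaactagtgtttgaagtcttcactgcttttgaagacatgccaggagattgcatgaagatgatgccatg
MEIS2: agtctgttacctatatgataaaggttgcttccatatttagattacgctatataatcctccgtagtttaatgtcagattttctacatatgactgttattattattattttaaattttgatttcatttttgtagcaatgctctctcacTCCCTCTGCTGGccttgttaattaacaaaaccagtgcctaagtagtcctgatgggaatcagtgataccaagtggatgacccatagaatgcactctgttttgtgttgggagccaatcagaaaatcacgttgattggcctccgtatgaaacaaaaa
MED13L: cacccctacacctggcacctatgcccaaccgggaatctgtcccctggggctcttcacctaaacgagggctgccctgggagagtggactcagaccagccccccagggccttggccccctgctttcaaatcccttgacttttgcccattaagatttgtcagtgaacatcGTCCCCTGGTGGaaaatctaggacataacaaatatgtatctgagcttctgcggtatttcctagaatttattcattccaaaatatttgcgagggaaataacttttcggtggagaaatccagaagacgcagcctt
Of these 8 matches, only that of ZCCHC2 had 0 mismatches, and the others had 1.

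The median narrowed peak was 350 bp wide in control cells (quartiles 300 and 400 bp) and 150 bp wide in treated cells (quartiles 100 and 150 bp). These widths selected the peaks and are given as a description. The other shared peaks had the same median control width of 350 bp but a median of 300 bp in treated cells. All coordinates in the lists are multiples of 50 bp and the smallest treated peak is 100 bp, which 1167 narrowed peaks reached, while another 1234 ended at 150 bp. A control peak under 200 bp could not meet the rule. Among the 25755 shared peaks of at least 200 bp, 12.2% were narrowed (95% interval 11.8 to 12.6%). Among control widths from 200 to 500 bp, the share was lowest at 450 bp, with 6.65% (5.77 to 7.65%), and was 19.1% (18.0 to 20.2%) at 300 bp. On either side of 300 bp it was 10.8% at 250 bp and 10.9% at 350 bp. In steps of 50 bp, only control widths that are multiples of 100 bp can meet a ratio of exactly 50%. How much of the differences between widths this makes up was not tested. Shrinkage was the usual direction, since 62.3% of all shared peaks were shorter in treated cells, 22.6% were equal and 15.1% were longer. Peaks that at least doubled their width numbered 416.

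**Figure D1:**
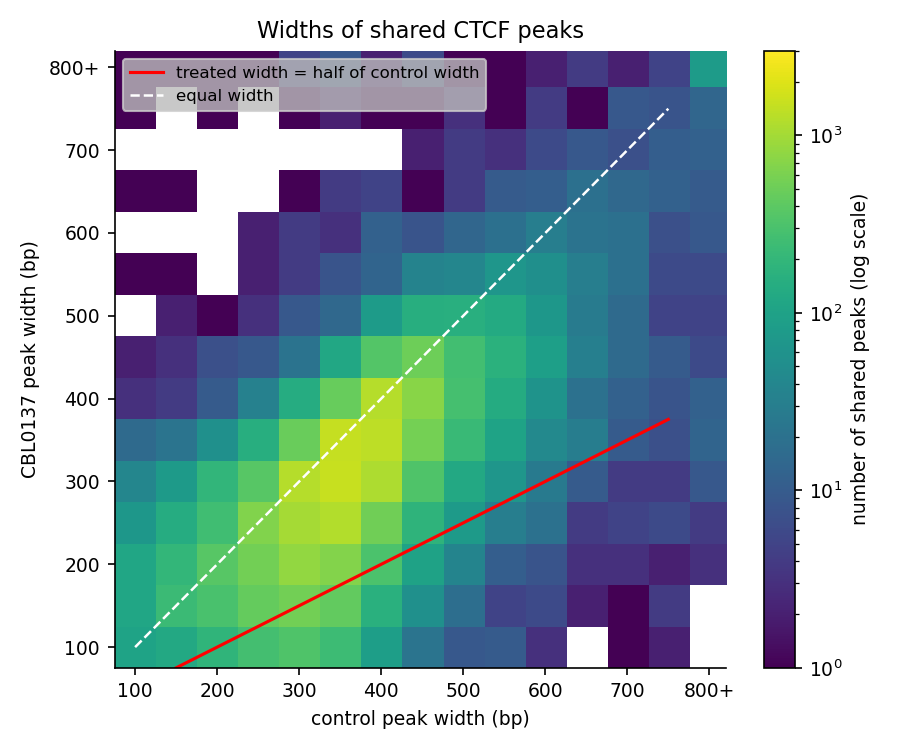
Number of shared CTCF peaks by control width (horizontal axis, bp) and width in CBL0137-treated cells (vertical axis, bp), with widths of 800 bp and more put together and a logarithmic colour scale. Below a control width of 800 bp, peaks on or below the red line are narrowed (3131 at all widths). At 800 bp and more, narrowed peaks can share a cell with others. The densest cells lie at control widths of 300 to 400 bp, on or just below the dashed line of equal width.

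The threshold cut through a continuous range of ratios. A ratio of exactly 50% was found in 1171 narrowed peaks, and 1618 shared peaks lay just outside, above 50% and up to 60%. Just inside, a peak within CADM3, a neuronal cell adhesion gene (chr1:159167801-159168100), went from 300 to 150 bp. Its fold enrichment was 66.7 in control and 22.0 in treated cells. A peak in an intron of the TSNAX-DISC1 readthrough gene (chr1:231942451-231942750) had the same widths, with 66.1-fold and 19.4-fold enrichment. Just outside, a peak in an intron of the chemokine gene CCL1 (chr17:32688401-32688900) went from 500 to 300 bp with 88.9-fold and 28.5-fold enrichment. The peak nearest MELK, a kinase of dividing cells (chr9:36555851-36556200), went from 350 to 200 bp with 80.2-fold and 39.7-fold enrichment.

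Narrowed peaks were of middle strength in control cells and among the weaker peaks in treated cells. Their median control fold enrichment was 29.4 (quartiles 23.4 and 36.7), which is the 52.0th percentile of the control list, and that of the other shared peaks was 35.7, the 68.7th percentile. In treated cells their median was 14.2 (quartiles 10.6 and 19.1), the 14.48th percentile of the treated list, and that of the other shared peaks was 31.3. The lost peaks had a median control fold enrichment of 20.6, so that narrowed peaks lay between lost peaks and the rest. When all control peaks were put into 10 groups of equal size by fold enrichment, the share that narrowed was 1.39% in the weakest group, between 9.12% and 9.71% in the fourth to the sixth, and 3.71% in the strongest. The share lost fell without a break from 88.2% in the weakest group to 7.60% in the strongest. Counted over shared peaks only, narrowing reached 20.5% in the third group and came to 4.02% in the strongest. Both shares of narrowing count control peaks under 200 bp, which could not meet the rule. Their number in each group was not taken, and its part in the low values of the weak groups was not tested. These values come from the same lists as the rule and carry no test.

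**Figure D2:**
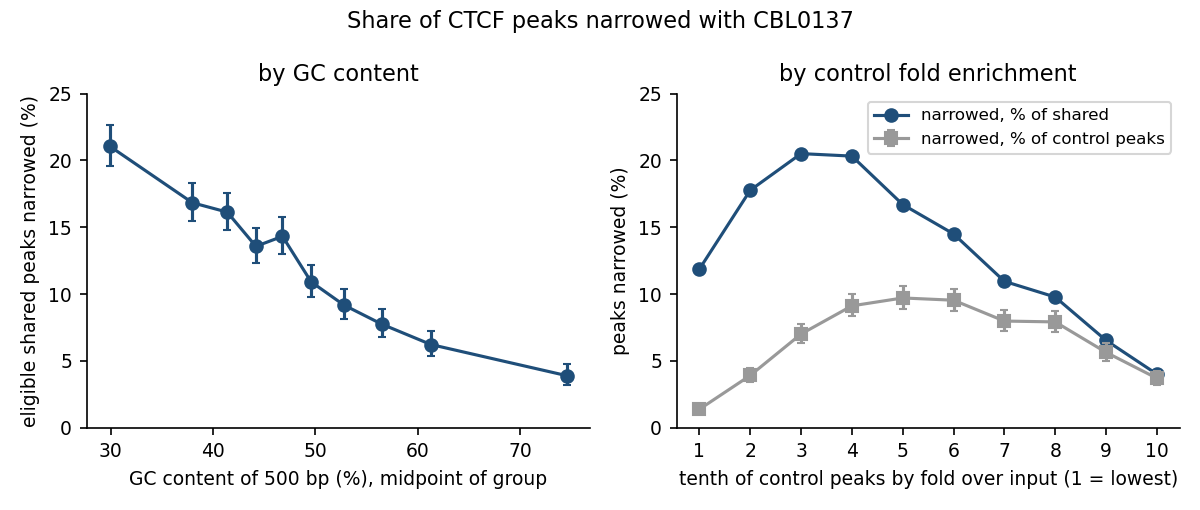
Left, percent of shared peaks of at least 200 bp that narrowed, in 10 groups by GC content of 500 bp around the centre (horizontal axis, %), with 95% Wilson intervals. Right, percent narrowed in 10 groups of control peaks by fold enrichment over input, as a share of shared peaks (blue) and of all control peaks (grey, with 95% Wilson intervals). Narrowing falls from 21.1% to 3.90% with rising GC content, and by strength it is highest in the third group among shared peaks. Unlike the left panel, the right panel includes peaks under 200 bp, which could not meet the rule.

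Trimming took sequence from both flanks. In 2991 narrowed peaks (95.5%, 94.7 to 96.2%) both ends had moved inwards, in 68 only the end at the lower coordinate and in 72 only the other end. Among the 13707 other shared peaks that were shorter in treated cells, 44.9% (44.1 to 45.8%) were trimmed on both sides, but a loss of 50 bp can fall on 1 side only. At an equal loss of 150 bp, 97.9% of 820 narrowed peaks and 87.3% of 2059 others were trimmed on both sides. At 200 bp the shares were 99.1% of 1079 and 85.5% of 538. At 100 bp, where every narrowed peak was 200 bp wide in control cells, the order was the opposite, with 67.0% of 188 against 77.6% of 4766. The median control widths of the compared peaks differ at each loss, 300 against 400 bp at 150 bp for example, since the rule sets them.

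Neither genomic side was preferred. More was removed at the lower coordinate in 32.1% of narrowed peaks (30.5 to 33.8%), more at the higher in 34.9% (33.3 to 36.6%), and the same on both in 33.0%. The 2 sides differed by at most 50 bp, 1 step of the grid, in 76.7%. For the 2085 narrowed peaks inside a gene, the side towards the start of the gene lost more in 33.2% (31.2 to 35.2%) and the side towards its end in 33.1% (31.2 to 35.2%). In the other shortened peaks inside a gene these shares were 33.6% and 37.6%.

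Relative to the CTCF consensus, a small excess of trimming lay on its 3′ side. The match could be placed without a tie, within 1 mismatch, in 1484 narrowed peaks, of which 50.5% read on the plus strand. More sequence was removed 3′ of it in 38.0% (35.6 to 40.5%), more on the 5′ side in 29.8% (27.5 to 32.2%), and equal amounts in 32.2%. The mean removed was 115 bp on the 3′ side and 104 bp on the 5′ side, a difference of 11.1 bp (5.71 to 16.5 bp). In control cells the 3′ arm, from the match to the peak's end, was already longer, with 193 against 179 bp, and after treatment the arms were 77.5 and 74.7 bp, a difference of 2.85 bp (-2.76 to 8.46 bp). In the 1359 narrowed peaks under 550 bp the treated 3′ arm was longer by 5.88 bp (2.64 to 9.13 bp). Other shortened peaks had a removed difference of 9.27 bp (7.89 to 10.6 bp) and kept a longer 3′ arm by 6.11 bp (4.64 to 7.59 bp). The excess is thus not particular to narrowed peaks, and all these differences are smaller than the 50-bp step of the peak ends.

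The consensus match usually stayed within the kept part. The kept part held the centre of the match in 1400 of 1484 narrowed peaks (94.3%, 93.0 to 95.4%), although it covered a mean of 41.4% of the control peak. In the other shortened peaks the share was 99.3% with 76.9% of the length. Matches lie near the middle of a peak and both flanks were trimmed, so the 2 percentages describe the same geometry from different sides. In narrowed peaks under 550 bp, the median distance from match to peak centre was 14 bp in the control list and 14 bp in the treated list.

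Wide peaks showed another geometry. In the 233 narrowed peaks of at least 550 bp, the larger of the trimmed flanks held a median of 83.3% of the base pairs removed. It held over 75% in 62.7% (56.3 to 68.6%) of them, against 5.83% (5.04 to 6.74%) of narrower ones. In steps of 50 bp, a loss of 200 bp or less exceeds 75% on 1 flank only where the other end did not move inwards. The median loss of all narrowed peaks was 200 bp, so the grid itself lowers the share in narrower ones. How much of the contrast this makes up was not tested. Both sides were still trimmed in 84.1% of the wide ones. The match lay a median of 132 bp from the centre of the control peak (quartiles 79 and 205 bp, n = 125) and 18 bp from the centre of the treated peak (quartiles 7 and 35 bp). In other shared peaks of at least 550 bp these medians were 64 and 22 bp (n = 1118). The match was inside the kept part in 101 of 125 wide narrowed peaks (80.8%, 73.0 to 86.7%), where the kept part covered a mean of 38.1% of the control peak. More than 1 match was found in 12.6% of the wide narrowed peaks (8.92 to 17.5%) and in 15.4% of the other wide shared peaks (13.7 to 17.3%).

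**Figure D3:**
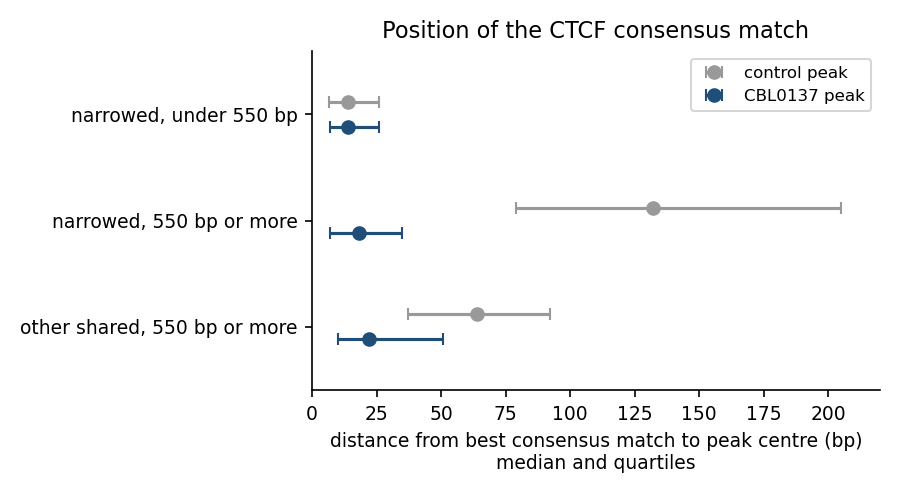
Distance from the best consensus match to the peak centre (horizontal axis, bp; points are medians, bars are quartiles) in the control list (grey) and in the list of treated cells (blue). In wide narrowed peaks the match is 132 bp off the control centre and 18 bp off the treated centre, while in narrowed peaks under 550 bp both medians are 14 bp.

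The peaks with the most sequence removed show this uneven loss. The largest loss, 1000 bp, was in an intron of DGKG, a diacylglycerol kinase, where a peak of 1200 bp (chr3:185959551-185960750, 24.9-fold enrichment) became one of 200 bp (12.7-fold). It lost 850 bp on one side and 150 bp on the other, and the match printed above lies in what was kept. Near MTFMT, which formylates the mitochondrial initiator tRNA, a peak of 1050 bp (chr15:65325351-65326400) kept 250 bp and lost 700 bp at its higher end. A peak 42595 bp from the nearest start of LPIN1, a phosphatidate phosphatase (chr2:11969351-11970350), went from 1000 to 250 bp, with 700 bp lost on one side. In an intron of MEF2A, a MADS-box transcription factor, a peak of 1050 bp (chr15:100243901-100244950, 20.8-fold) kept 300 bp and lost 700 bp at its lower end. The kept peak at MEF2A had a 40.3-fold enrichment in the treated list. The widest narrowed peak, 1350 bp near the casein kinase gene CSNK1G2 (chr19:1929101-1930450), kept 650 bp.

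Further peaks of this kind lay in an intron of DIDO1, a chromatin reader gene (chr20:61531401-61532450, 1050 to 350 bp), and 33776 bp from a start of MEIS2, a homeobox gene (chr15:37426801-37427750, 950 to 300 bp). A peak 65473 bp from a start of SORL1, a neuronal sorting receptor, was 900 bp wide (chr11:121526151-121527050, 57.9-fold). It became one of 250 bp (27.8-fold) and lost 600 bp at its lower end. The METAP1 promoter, that of a methionine aminopeptidase, went from 750 to 100 bp (chr4:99916301-99917050), and its ratio of 13.3% was the lowest, shared with 1 other narrowed peak. A peak 61028 bp from a start of MED13L, a Mediator subunit, went from 950 to 300 bp (chr12:116384901-116385850). Its fold enrichment was 30.6 in control and 40.6 in treated cells. An intronic peak of the noncoding gene ENSG00000259200, 32388 bp from a start of SQOR, a sulfide oxidising enzyme, also went from 950 to 300 bp (chr15:46006651-46007600). The last of the 12 lay on an unlocalised contig of chromosome 17 and went from 900 to 200 bp. In 10 of these 12 peaks 1 flank held over 75% of the base pairs removed.

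The narrowed peaks with the highest control enrichment were, in contrast, of ordinary width. Like the peaks above they were trimmed on both sides, but the loss was more evenly split than in most of those. The strongest, in an intron of RAI2 (chrX:17830951-17831200), was 90.3-fold enriched at 250 bp in control cells and 13.9-fold at 100 bp in treated cells. At the shared start region of PCOTH and MIPEP, a mitochondrial peptidase (chr13:24463501-24463800), the values were 78.4-fold at 300 bp and 24.2-fold at 100 bp. The peak 107011 bp from a start of RPE65, the retinoid isomerase of the visual cycle (chr1:68808451-68808800), was 75.7-fold enriched at 350 bp and 16.3-fold at 150 bp. That 26650 bp from a start of the olfactory receptor gene OR10R2 (chr1:158476201-158476500) was 74.5-fold at 300 bp and 10.02-fold at 100 bp. At an untranslated region within ZCCHC2 (chr18:60251501-60251950), the peak was 70.8-fold at 450 bp and 20.03-fold at 200 bp. The remaining ones were in introns of ENSG00000268163 (chr19:57977101-57977450) and LINC02702 (chr11:116512251-116512600) and near P2RY4, a nucleotide receptor (chrX:69482851-69483150), all between 69.3-fold and 71.1-fold in control cells. Of these 8 peaks, 3 held a match within 1 mismatch in the control peak, those named for RPE65, OR10R2 and ZCCHC2.

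The CTCF consensus was less frequent in narrowed peaks than in other shared peaks. A match within 1 mismatch was found in the central 400 bp of 1520 of 3128 narrowed peaks on the assembled chromosomes (48.6%, 46.8 to 50.3%) and in 64.1% (63.5 to 64.7%) of 23884 other shared peaks, a difference of -15.5 percentage points (-17.3 to -13.6). Lost peaks had it in 31.5%, so that narrowed peaks again lay between both. In windows of equal length 10 kb away, the share was 2.11% for narrowed and 3.299% for other shared peaks. A match without mismatch was found in 8.98% (8.03 to 10.04%) of narrowed and 22.8% (22.3 to 23.4%) of other shared peaks. Weighting the other shared peaks to the control widths of the narrowed ones gave a difference of -15.3 points, weighting to their control fold enrichment -12.7 points, and weighting to both -14.6 points. The share was lower in narrowed peaks on 23 of 23 chromosomes. Compared with lost peaks of the same control fold enrichment, narrowed peaks had the match more often by 13.1 points (11.1 to 15.1).

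The matches themselves also differed. Over best matches with at most 2 mismatches, 2321 in narrowed and 18937 in other shared peaks, the largest excess of mismatches in narrowed peaks was at position 11 of the core (17.4% against 9.12%), followed by position 12 (27.1% against 19.1%) and position 1 (20.2% against 13.5%). At position 3 mismatches were fewer in narrowed peaks, 15.8% against 20.7%, a difference of -4.93 points (-6.47 to -3.29). Positions 2, 8 and 9 differed by less than their intervals. Narrowed peaks had fewer matches without mismatch, so an excess at single positions partly restates that difference. For at most 2 mismatches no share in windows 10 kb away was taken, so matches that occur without CTCF binding are not set apart. A CG dinucleotide was part of the match in 3.03% (2.27 to 4.03%) of narrowed and 8.49% (8.05 to 8.95%) of other shared peaks, over matches within 1 mismatch. The 12-bp core as searched allows no CG, so only a match with a mismatch can hold one. CG positions beside the core were not counted, and DNA methylation was not measured. At equal GC content the difference was -2.28 points (-3.12 to -1.21).

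**Figure D4:**
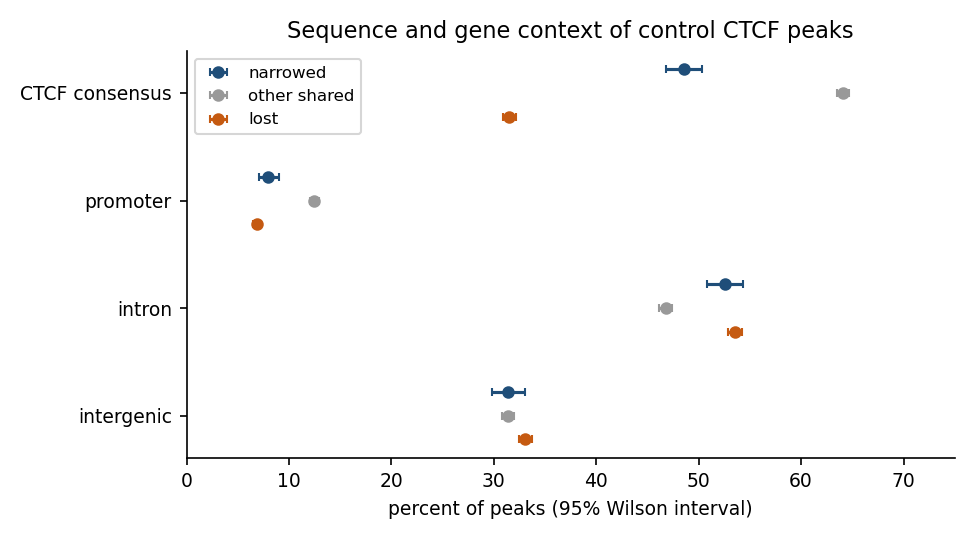
Percent of narrowed (blue), other shared (grey) and lost (orange) control CTCF peaks that hold the consensus within 1 mismatch or lie in a gene context (horizontal axis, %, with 95% Wilson intervals). The consensus share of narrowed peaks, 48.6%, is between 31.5% in lost and 64.1% in other shared peaks, and their promoter share, 7.99%, is below the 12.5% of other shared peaks, an order that turns at equal GC content.

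Against all other shared peaks, narrowed peaks were poorer in GC, except those that stayed at 250 bp or more. Over 500 bp around the centre their median GC content was 43.6% (interval of the median 43.2 to 44.2%), against 48.8% in other shared peaks and 43.0% in lost peaks. The difference of -5.20 points was -4.60 after weighting to control width, -3.80 after weighting to control fold enrichment and -2.40 after weighting to both. It was negative on 23 of 23 chromosomes. The narrowed peaks that ended at 100 to 200 bp had medians between 42.5% and 44.2%. The 248 that ended at 250 bp or more had a median of 48.7%, close to that of all other shared peaks. Their median control width was 600 bp, against 350 bp in other shared peaks, and they were not compared with other shared peaks of that width. When the shared peaks were put into 10 groups by GC content, the share of eligible peaks that narrowed fell from 21.1% (19.6 to 22.6%) in the group below 36.2% GC to 3.90% (3.195 to 4.75%) in the group from 64.2%. GC content can also change how well fragments are amplified and sequenced, and its part in the width of a peak was not tested.

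Fewer narrowed peaks lay at promoters and more in introns, an order that did not hold at equal GC content, and for promoters the interval included 0 with an FDR of at most 1e-05 in both lists. A protein-coding start within 1 kb of the centre was found for 250 narrowed peaks (7.99%, 7.09 to 8.99%) and for 12.5% (12.1 to 12.9%) of other shared peaks, a difference of -4.49 points (-5.48 to -3.40). It had this sign on 22 of 23 chromosomes. Introns held 52.6% (50.8 to 54.3%) of narrowed and 46.8% (46.2 to 47.4%) of other shared peaks, while the intergenic share was 31.4% in both. Coding exons held 1.82% and 2.41%, untranslated regions 2.85% and 2.84%. Gene context moved with GC content. Against other shared peaks of equal GC content, the promoter difference turned to 1.52 points (0.578 to 2.55) and the intron difference came to 0.157 points (-1.73 to 2.04), whereas the consensus difference grew to -18.2 points (-20.1 to -16.3).

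Of the promoter peaks, the 5 with the highest control enrichment were at PCOTH and MIPEP, described above, and at MAML2, ATM, CATSPERG and NHS. At MAML2, a coactivator of Notch (chr11:96076251-96076700), the peak was 450 bp wide and 69.0-fold enriched in the control list, and 100 bp wide and 29.6-fold enriched in the treated list. The peak 43 bp from a start of ATM, the kinase that signals DNA breaks (chr11:108093601-108093900), went from 300 to 100 bp, with 68.5-fold enrichment in the control list and 9.54-fold in the treated list. At CATSPERG, a sperm calcium channel subunit (chr19:38826151-38826450), the width went from 300 to 150 bp, as it did at NHS (chrX:17393051-17393350). Only the MAML2 peak held a consensus match within 1 mismatch.

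Counted within 10 kb of a member, clustered gene families held few narrowed peaks each. Around the clustered protocadherins, adhesion genes chosen stochastically in neurons with the help of CTCF, 6 of 39 eligible shared peaks were narrowed (15.4%, 7.25 to 29.7%). One of them, at the promoter of PCDHGB7 (chr5:140797001-140797250), went from 250 to 100 bp with 36.8-fold enrichment in control and 17.2-fold in treated cells. HOX genes, which pattern the body axis, had 3 of 23, with the strongest near HOXD13 (chr2:176953001-176953400, 400 to 200 bp). Imprinted genes had 3 of 27, among them a peak 10 bp from a start of MEST (chr7:130125901-130126150, 250 to 100 bp). Olfactory receptor genes had 5 of 46, keratin genes 4 of 26, histone genes 2 of 22 and collagen genes 13 of 105. All of these intervals include the 12.2% of all eligible peaks. ZNF genes, which encode zinc-finger proteins, had 21 of 258 (8.14%, 5.39 to 12.1%), with an upper bound just below it. The strongest of these peaks lies on chromosome 19, where 7.47% of all eligible shared peaks narrowed. The ZNF list was not compared with other peaks of its chromosomes.

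Smaller lists gave single peaks. Genes of CTCF, cohesin, condensin and FACT, the histone chaperone that curaxins trap on chromatin, had 1 narrowed peak among 26 eligible ones (3.85%, 0.682 to 18.9%). It lay within the cohesin subunit gene RAD21, where the width went from 350 to 150 bp. The NF-kB list had 3 of 17, and 2 of them were near NFKBIA, the inhibitor that NF-kB induces. The stronger of these (chr14:35882451-35882850) was 57.9-fold enriched at 400 bp in control cells and 9.995-fold at 200 bp in treated cells. The p53 list had 1 of 15, in an intron of ZMAT3 (chr3:178786951-178787350, 400 to 200 bp). The MYC family had 1 of 5, 110 bp from a start of MYC, with 300 bp and 30.8-fold enrichment in control and 100 bp and 11.6-fold in treated cells. None of these counts can separate a list from the overall share.

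Along the genome, the fullest window of 200 kb held 6 of them, on chromosome 1 between PMVK and EFNA3 (chr1:154879151-155067200), among 20 control peaks of which 17 were shared and 3 lost. The genes include ADAM15, a membrane protease, and the ephrin gene EFNA3, where a peak of 900 bp lost 550 bp on one side only. Between PGPEP1 and ELL, an elongation factor gene (chr19:18450501-18631450), 5 of 19 control peaks were narrowed and 4 lost. Near AANAT, the melatonin synthesis gene, and SNHG16 (chr17:74454651-74554900), 4 of 11 were narrowed and 0 lost. At SPTBN1 and EML6 (chr2:54884701-55001300) 4 of 7 were narrowed, and at FHL2 (chr2:106015301-106138000) 4 of 5, with the other peak lost. ANKS1B was the only protein-coding gene with 5 narrowed peaks, out of 9 shared ones over 1258480 bp. These windows were chosen for their counts, out of 122 windows of 200 kb with 3 or more narrowed peaks. Over the whole control list, 6.60% of peaks were narrowed.

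By chromosome, the share of eligible shared peaks that narrowed ran from 6.63% (4.76 to 9.16%) on chromosome 22 and 7.47% (6.10 to 9.13%) on chromosome 19 to 15.2% on chromosomes 3 (13.6 to 17.0%) and 5 (13.5 to 17.2%). The intervals of the lowest and the highest chromosomes do not overlap, whereas 14 of the 23 chromosomes have an interval that holds the 12.2% of all eligible peaks. Chromosomes 22 and 19 had the highest median GC content among other shared peaks, 56.0% and 57.0%, and chromosomes 3 and 5 had 46.0% each. Narrowing did not follow GC content throughout. Chromosome X had 46.2% GC with 10.1% narrowed, and chromosome 18 had 44.3% with 11.8%. Chromosome 4 had the lowest GC content, 43.0%, with 14.3% narrowed. The nearest control peak was a lost one for 43.4% (41.7 to 45.1%) of narrowed and 38.2% (37.6 to 38.8%) of other shared peaks. At equal GC content this difference was 1.61 points (-0.254 to 3.49). The nearest peak was itself narrowed for 6.00% (5.23 to 6.89%) of narrowed and 6.65% (6.34 to 6.97%) of other shared peaks.

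**Figure D5:**
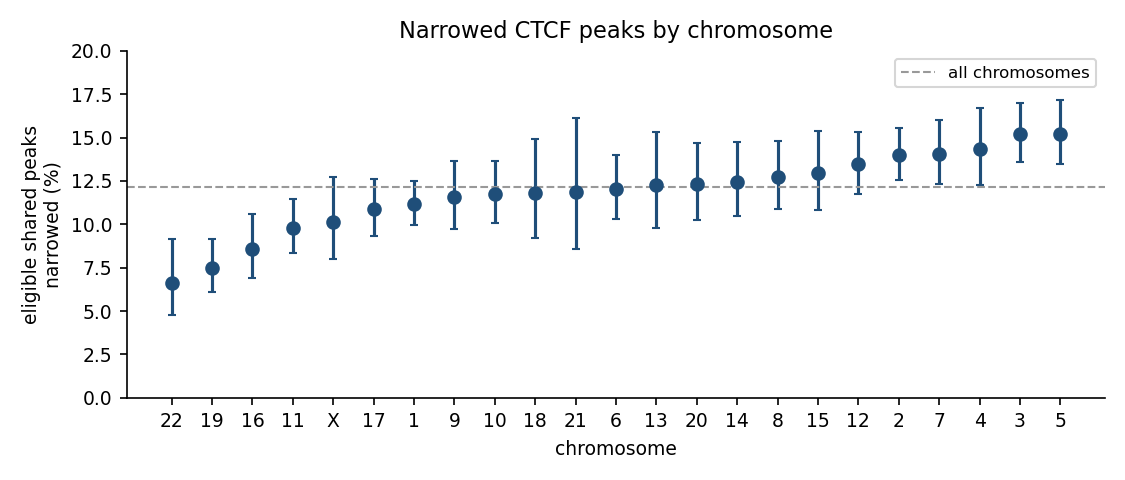
Percent of shared peaks of at least 200 bp that narrowed on each chromosome (points with 95% Wilson intervals), ordered by that percent, with the share over all chromosomes as a dashed line. Chromosome 22 is lowest at 6.63% and chromosomes 3 and 5 are highest at 15.2%.

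The authors' direct comparison of conditions looks at the same libraries, so that its sites describe the narrowed peaks and are no independent measure. Of all shared peaks, 30.7% overlapped a site that the authors called higher in control cells, and 4.23% a site called higher in treated cells. For narrowed peaks these shares were 87.3% (86.0 to 88.4%) and 0.0319%, the latter 1 peak of 3131. In narrowed peaks under 550 bp, 90.4% (89.1 to 91.5%) of the control-higher sites were centred in the part that was kept. The kept part is the middle of most of these peaks, so that a site spanning the peak is centred there whichever part of it changed. In those of at least 550 bp it was 41.6% (35.4 to 48.1%) of 226 sites, and the rest were centred outside the kept part. There the kept part is often off the middle and covered a mean of 38.1% of the control peak (n = 125 with a match). A site spanning such a peak can be centred outside the kept part whichever part of it changed, so these shares do not locate the change.

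By final width, the consensus share was 46.1% (43.2 to 48.9%) in those that ended at 100 bp, 49.8% (47.0 to 52.5%) at 150 bp, 51.9% (47.4 to 56.3%) at 200 bp and 48.4% (42.2 to 54.6%) from 250 bp. These intervals overlap. The promoter share was 9.69% (8.12 to 11.5%) at 100 bp, 6.08% (4.88 to 7.55%) at 150 bp, 7.08% (5.11 to 9.74%) at 200 bp and 11.3% (7.93 to 15.8%) from 250 bp, and the interval at 200 bp overlaps all the others. Median GC content in these groups was 44.2%, 42.5%, 43.6% and 48.7%, and its part in the promoter shares was not tested. Median treated fold enrichment was 12.4 in those of 100 bp and 23.6 in those from 250 bp.

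How many peaks count as narrowed depends on the cutoff of the lists. With an FDR of at most 1e-05 in both lists 485 remained, 2.52% (2.30 to 2.75%) of eligible shared peaks, and their consensus difference was -17.8 points (-22.3 to -13.3). Their promoter difference was -2.70 points, with an interval that includes 0 (-5.00 to 0.237), and their GC difference was -3.40 points.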

How the data were processed

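CTCF ChIP-seq lists of control and CBL0137-treated HT1080 cells were used. The authors mapped reads to hg19 with Bowtie2 2.2.3, removed non-unique and duplicate reads (SAMtools 1.5) and called peaks with PePr in windows of 100 bp, pooling the replicates of a condition. The lists, deposited without column names, were read in broadPeak order. The fold (ratio of ChIP over input), p-value and FDR are as deposited by the authors. From the authors' differential lists only positions were used. Their columns of folds and p-values were not. Reads per library were not analysed here. The labels describe paired-end and the methods single-end reads, which could affect peak widths and was not resolved.

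Overlap was at least 1 bp. Sequence and genes came from GRCh37, the same assembly as hg19, with GENCODE v44lift37. The CTCF core consensus (12 bp, both strands) was searched over 400 bp around the control centre, with at most 1 mismatch. Sides and kept parts used the best match in the whole control peak, without the 74 narrowed peaks whose best matches tied. Promoters were centres within 1 kb of a protein-coding start. The 3 narrowed peaks on other contigs were left out of these measures. Shares have Wilson and differences Newcombe 95% intervals. Weighted values average other shared peaks over the widths, the 10 fold groups or the 10 GC groups of the narrowed peaks.

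Named peaks are the 12 with the most sequence removed, the 8 strongest and the 5 strongest promoter peaks, the 5 fullest windows of 200 kb, examples at the threshold and the strongest member near each listed gene family. Members and lists were chosen with earlier results of these data known. Routines were tested on simulated data. Tools were pysam 0.24.0, matplotlib 3.10.9, scipy 1.17.1, pandas 2.3.3 and numpy 2.4.6 in Python 3.11.15.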

Additional observations from a re-analysis of the deposited data

How the results depend on the processing

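No paired analysis was possible because each list pools the replicates, and for the same reason no replicate could be left out. Of 54 values computed under other settings, 27 stayed within the interval of the reported value (for the count, within 1.5 times), 26 moved beyond it in the same direction and 1 turned its sign. That one was the promoter difference, which became 1.52 points against other shared peaks of equal GC content. Weighting to GC and to fold groups was added after seeing the data. With an FDR of at most 1e-05 in both lists the count was 485 (2.52% of eligible), 88.5% were trimmed on both sides, 92.0% were at a control-higher site, 92.6% of matches were kept, and the differences were -17.8 points for the consensus, -2.70 for promoters (-5.00 to 0.237) and -3.40 for GC. At 10-fold enrichment or more in both lists 10.04% of eligible peaks were narrowed. With a ratio of at most 33.3% the count was 834 (3.82% of eligible), trimmed on both sides in 99.04%, at a control-higher site in 96.0%, with 90.8% of matches kept, a consensus difference of -12.7 points and a GC difference of -5.80. With a ratio of at most 60% the count was 4749 (18.4%), with 93.9%, 83.9% and 95.6% for sides, control-higher sites and kept matches. Allowing 2 mismatches gave a consensus difference of -5.60 points, and 0 mismatches a kept share of 95.5%. Weighting to fold groups gave -12.7 points for the consensus and -3.80 for GC, and weighting to GC groups -18.2 points for the consensus. The cause of these shifts was not tested. Strict pairs in both directions gave the same 3131 peaks. Widths are known in steps of 50 bp only, depth per peak is unknown, and intervals cover counting error alone.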
